A study of Mus musculus with 10 samples.

Results

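Heat shock chaperones of the cytosol and mitochondria were examined in LNCaP xenograft tumours from mice that had received sipuleucel-T (sip-T) with or without interleukin-15. The set holds 34 human genes out of 58735 in the deposited count table, chosen by name: HSP70 and HSP110 proteins, HSP40 partners, HSP90 and its co-chaperones, small heat shock proteins with BAG3, mitochondrial chaperones, the collagen chaperone SERPINH1 and the heat shock factors HSF1 and HSF2. All 34 were found as single rows, and 32 had enough counts to be tested. LNCaP, a line of human prostate carcinoma cells that respond to androgen, was grown under the skin of NOD.Cg-Prkdcscid Il2rgtm1Wjl/SzJ mice, a strain that lacks T, B and NK cells of its own. Sip-T is a cellular vaccine, made by exposing leukocytes to prostatic acid phosphatase joined to the cytokine GM-CSF. The 5 tumours of the IL-15 group had sip-T together with rhIL-15 (recombinant human IL-15, 1 µg), and the 5 tumours of the control group had control sip-T, with PBS as the vehicle for sham dosing. Each host of either group had 4 intraperitoneal doses of 5000000 sip-T cells in 100 µl of PBS, 1 week apart, and the tumours were collected on day 7 following the final dose. For the IL-15 group the sample labels read control sip-T plus the cytokine, while the growth protocol describes sip-T treated with IL-15 as well as subcutaneous cytokine, so the effects of treated cells and of injected cytokine cannot be told apart.

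Heat shock proteins keep other proteins folded. HSP70 binds exposed stretches of unfolded protein with the help of HSP40, hands many clients to HSP90 through adaptor proteins, and releases them when nucleotide is exchanged. HSF1 drives the inducible members under heat, oxidative or proteotoxic stress, while HSC70 (HSPA8) and HSP90 beta (HSP90AB1) are made at high level without stress. In prostate cancer cells the HSP90 machinery is known for holding the androgen receptor in its hormone-binding form.

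The libraries held 13560224 to 19324056 counts, and the limit set by 3 counts lay between 0.155 and 0.221 CPM (counts in a library scaled to 1000000), for counting error only. Levels below are CPM scaled by TMM unless given as FPKM, the authors' length-corrected unit. The summed CPM of 10 prostate epithelial markers, among them KLK3, was 9109 to 14078 CPM in IL-15 tumours and 8063 to 11800.0 CPM in control tumours. The summed CPM of 12 T cell markers was 5.25 to 44.5 CPM in IL-15 tumours and 3.80 to 17.7 CPM in control tumours, that of 10 NK and cytotoxic markers 4.45 to 43.3 CPM in IL-15 tumours and 0.870 to 17.5 CPM in control tumours, that of 8 monocyte, macrophage and dendritic markers 1.17 to 3.61 CPM in IL-15 tumours and 1.34 to 2.14 CPM in control tumours, and that of 4 B cell markers 0.0530 to 0.147 CPM in IL-15 tumours and 0.0713 to 0.546 CPM in control tumours. MS4A1 was at 0 in all libraries. IL-15 tumours 1, 3 and 4 and control tumour 3 held the most T cell transcripts, and the part of leukocyte RNA in the chaperone results was not tested. In bulk tumours fewer cells of a type and less RNA per cell cannot be told apart, and nothing in the labels says that the 5 libraries of a group came from 5 separate mice, so p-values measure only the spread between these libraries.

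Chaperone transcripts were compared between the IL-15 and the control group to see whether they differed when the cytokine was added. STIP1 had lower levels in every IL-15 tumour than in every control tumour, as had HSPB8 with TMM factors but not on library totals alone. HSPA4L had a lower mean and DNAJA4 a higher mean in IL-15 tumours, and the levels of HSPB1, HSP90AB1 and HSPA8, the most abundant members per gene length, overlapped between the groups. No member passed edgeR's quasi-likelihood test adjusted over all genes (0 of 32 tested, beside 0.0% of all 16913 tested genes, 1092 of which had an unadjusted p under 0.05; smallest adjusted p among members 0.758). At an unadjusted edgeR p under 0.05 stood 4 members, where 6.46% of all tested genes did. They were HSPB8, STIP1 and HSPA4L on the lower side (3.43% of all genes) and DNAJA4 on the higher side (3.03%). Without control tumour 1 the count was 7, with HSPA8, BAG3 and HSPA1A added on the lower side, where 8.63% of all genes in that fit stood under 0.05 in either direction. DESeq2 called 1 member, HSPB8, as lower, beside 0.0143% of its genes called lower and 0.0714% called in either direction, and limma voom called 0 members and 0.0% of genes. The levels of 2 members did not overlap between the groups, both lower in IL-15 tumours, where 0.319% of all genes did so and 0.674% did so in either direction. On library totals 1 member, STIP1, was without overlap, where 0.166% of all genes lay lower without overlap. HSPB8 and STIP1 were already known from earlier results of these data when the set was chosen, so their place in it is no independent support. Without them 14 members lay above 0 and 16 below.

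Over the set, 14 members had log2 fold changes above 0 and 18 below 0, while 51.0% of all tested genes lay below 0. The median log2 fold change was -0.096 over the 32 tested members and -0.006 over all tested genes. As a share of all counts the 34 genes together took 0.863, 0.885, 0.698, 0.842 and 0.806% in IL-15 tumours 1 to 5, against 0.755, 0.953, 0.837, 0.825 and 0.801% in control tumours 1 to 5. These shares overlapped almost fully, with the highest in control tumour 2 and the lowest in IL-15 tumour 3. All fold changes are IL-15 over control from edgeR, with standard errors.

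**Figure D1:**
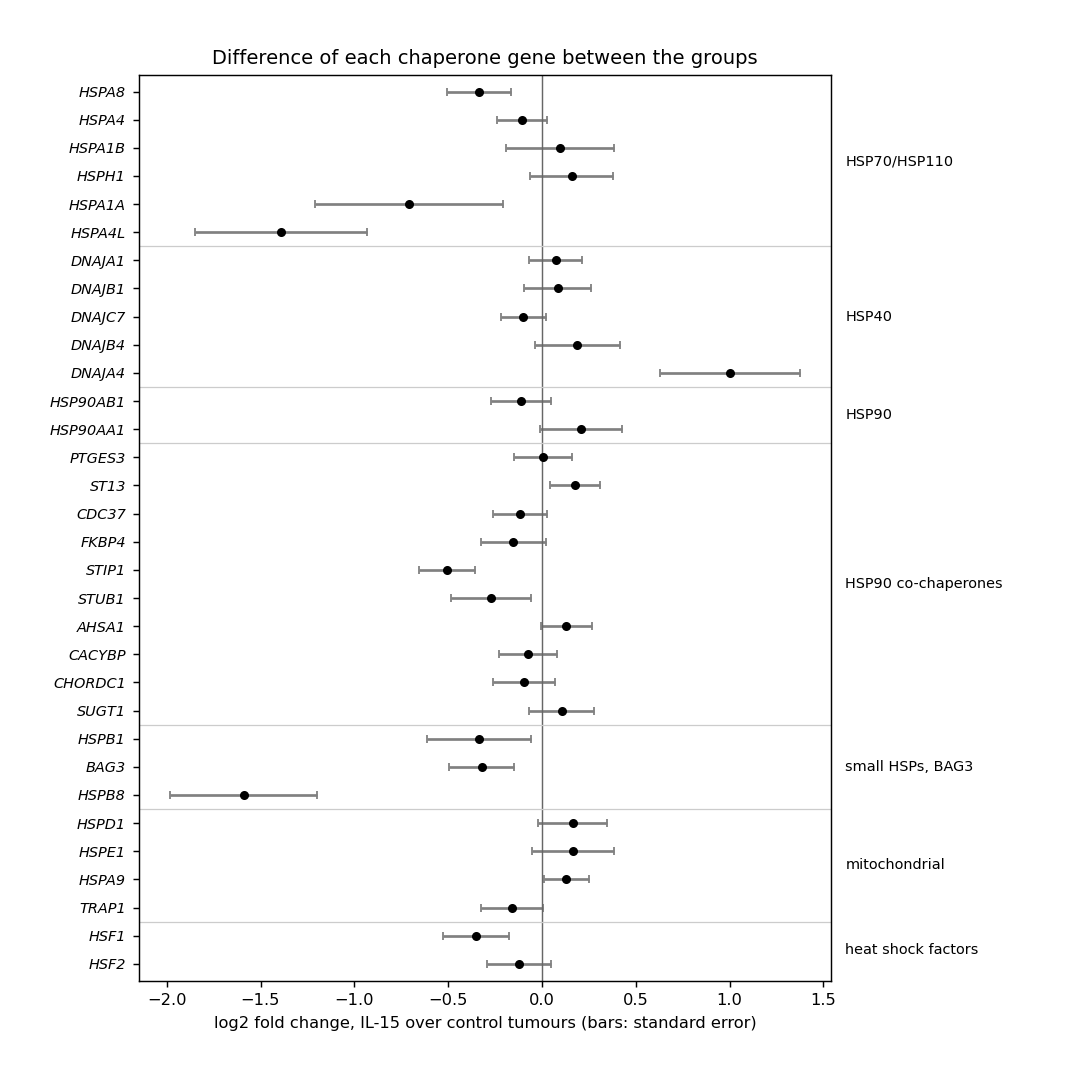
Log2 fold change of 32 tested chaperone genes, IL-15 over control tumours (x axis), grouped by role (y axis), from edgeR with bars for the standard error (n = 5 tumours each). HSPB8 and HSPA4L lie farthest to the left at -1.59 and -1.39, DNAJA4 farthest to the right at 1.00, and 23 of the 32 lie within 0.3 of 0.

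Small heat shock proteins hold unfolded proteins without using ATP, and BAG3 couples them to HSP70 and to autophagy. All 3 members lay below 0 (median log2 fold change -0.34). HSPB8 is the usual small heat shock partner of BAG3 in clearing damaged proteins (ENSG00000152137, chromosome 12, 119178642 to 119221131 on hg38). It measured 3.09, 1.75, 3.42, 3.36 and 1.83 CPM in IL-15 tumours 1 to 5, against 3.44, 8.80, 12.4, 12.1 and 3.78 CPM in control tumours 1 to 5. The group ranges met without overlap: the highest IL-15 tumour, number 3, stood just under the lowest control tumour, number 1, with control tumours 2, 3 and 4 well above control tumours 1 and 5. On library totals without TMM factors IL-15 tumour 3 had 3.76 CPM, against 3.58 and 3.49 CPM in control tumours 1 and 5, so there the groups overlapped. The log2 fold change was -1.59 ± 0.39 (edgeR adjusted p = 0.758; DESeq2 adjusted p = 0.0485). With each library left out in turn it ran from -1.79 to -1.39. The T cell marker sum was 44.5, 5.25, 28.3, 23.9 and 7.55 CPM in IL-15 tumours 1 to 5, against 4.27, 3.80, 17.7, 4.53 and 4.78 CPM in control tumours 1 to 5. IL-15 tumours 1, 3 and 4 had the most T cell RNA. With TMM factors their HSPB8 lay below all control tumours but above IL-15 tumours 2 and 5, which had less T cell RNA. Control tumours 2 and 4 had high HSPB8 and little T cell RNA. Control tumour 3 had the highest HSPB8 of all tumours and more T cell RNA than the other control tumours. IL-15 tumours 2 and 5 and control tumours 1 and 5 were low for both. The part of T cell RNA in the HSPB8 result was not tested.

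BAG3 itself had a smaller difference (ENSG00000151929, chromosome 10, 119651370 to 119677819 on hg38). Its level was 79.5, 75.6, 51.9, 90.4 and 82.3 CPM in IL-15 tumours 1 to 5, against 69.3, 113, 111, 98.1 and 83.8 CPM in control tumours 1 to 5. The ranges overlapped, with control tumour 1 under 4 of the 5 IL-15 tumours and control tumours 2, 3 and 4 above all of them (log2 fold change -0.32 ± 0.17, edgeR adjusted p = 0.774). Control tumours 2, 3 and 4 were thus the highest of the 10 for both HSPB8 and BAG3. The ratio of BAG3 to HSPB8 in FPKM was 26.8, 45.0, 15.8, 28.0 and 46.8 in IL-15 tumours 1 to 5, against 20.9, 13.4, 9.27, 8.46 and 23.1 in control tumours 1 to 5. These ratios overlapped between the groups, IL-15 tumour 3 lying within the control range.

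HSPB1, known as HSP27, was the most abundant member by mean FPKM, at 418 ± 194 FPKM in IL-15 tumours and 534 ± 141 FPKM in control tumours (SD, n = 5 each; ENSG00000106211, chromosome 7, 76302544 to 76304295 on hg38). Its level was 520.2, 823, 495, 1336 and 605 CPM in IL-15 tumours 1 to 5, against 656, 899, 1167, 799 and 1253 CPM in control tumours 1 to 5. IL-15 tumours 1, 3 and 5 lay below all control tumours, while IL-15 tumour 4 was the highest of all 10. The log2 fold change was -0.34 ± 0.28 (edgeR adjusted p = 0.839), and without IL-15 tumour 4 it was -0.65, with an unadjusted p under 0.05 (edgeR adjusted p = 0.849, in a range over all alternatives of 0.681 to 0.999). With each library left out in turn it ran from -0.65 to -0.21, and 616 to 1575 genes had an unadjusted p under 0.05. IL-15 tumour 4 also held the highest sum of 15 chaperones of the endoplasmic reticulum, 5753 CPM against 3569 to 4178 CPM in the other IL-15 tumours and 3751 to 5124 CPM in control tumours. The part of those genes in the result was not tested.

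**Figure D2:**
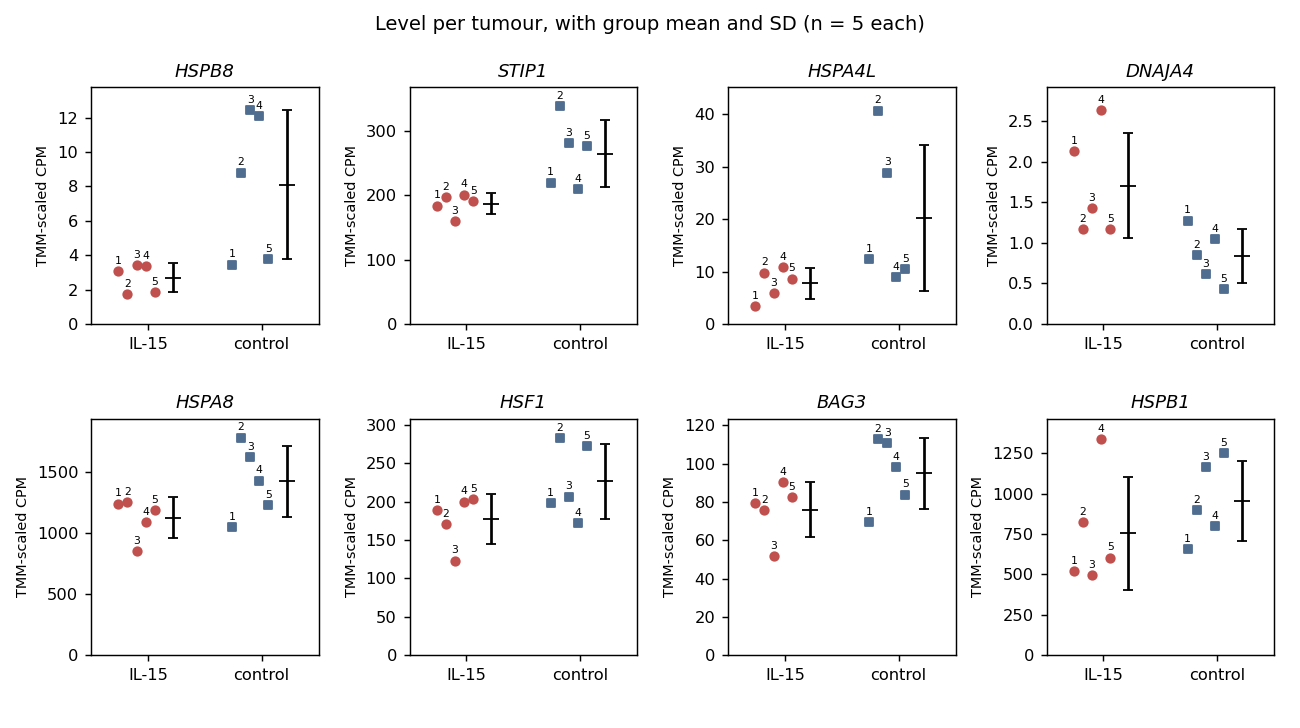
Level of 8 chaperone genes in TMM-scaled CPM (y axes, starting at 0) in each tumour, IL-15 left and control right, with small numbers for the tumour and a bar for the group mean and SD (n = 5 each). HSPB8 and STIP1 show no overlap between the groups on this scale (HSPB8 overlaps on library totals), and control tumours 2, 3 and 4 stand above all other tumours for HSPB8.

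HSP90 is a dimeric, ATP-driven chaperone of kinases and steroid receptors, with an inducible alpha form (HSP90AA1) and a constitutive beta form (HSP90AB1). HSP90AB1 came next after HSPB1 by mean FPKM, at 403 ± 82.7 FPKM in IL-15 tumours and 439 ± 41.5 FPKM in control tumours (ENSG00000096384, chromosome 6, 44246166 to 44253888 on hg38). It exceeded HSPB1 in FPKM in IL-15 tumours 1 and 5 and in control tumour 1. It measured 1405, 1461, 886, 1325 and 1551 CPM in IL-15 tumours 1 to 5, against 1281, 1601, 1514, 1350.0 and 1422 CPM in control tumours 1 to 5. IL-15 tumour 3 lay below the control range and the other 4 IL-15 tumours within it (log2 fold change -0.11 ± 0.16, edgeR adjusted p = 0.911). HSP90AA1 had 685, 509.8, 503, 581 and 529 CPM in IL-15 tumours 1 to 5, against 589, 753, 343, 398 and 347 CPM in control tumours 1 to 5 (ENSG00000080824, chromosome 14, 102080738 to 102139699 on hg38). Control tumours split, with 3, 4 and 5 below every IL-15 tumour, 1 within their range and 2 above them all (log2 fold change 0.21 ± 0.22, edgeR adjusted p = 0.874). Without control tumour 2 the log2 fold change was 0.42, with an unadjusted p under 0.05. With each library left out in turn, its log2 fold change ran from 0.10 to 0.42 and its edgeR adjusted p from 0.753 to 0.999. In those fits 616 to 1575 genes had an unadjusted p under 0.05. The ratio of HSP90AA1 to HSP90AB1 in FPKM was 0.277, 0.198, 0.322, 0.249 and 0.194 in IL-15 tumours 1 to 5, against 0.261, 0.267, 0.129, 0.168 and 0.139 in control tumours 1 to 5, so the beta form was the more abundant per length in every tumour.

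Co-chaperones set which clients HSP90 takes and how fast it turns over. Of 10, 4 lay above 0 and 6 below (median log2 fold change -0.085). STIP1, also called HOP, holds HSP70 and HSP90 together while a client passes between them (ENSG00000168439, chromosome 11, 64185272 to 64204543 on hg38). It measured 184, 196, 159.6, 201 and 191 CPM in IL-15 tumours 1 to 5, against 219, 338, 281, 209 and 276 CPM in control tumours 1 to 5. Every IL-15 tumour was below every control tumour, the nearest being IL-15 tumour 4 and control tumour 4. The log2 fold change was -0.50 ± 0.15 (edgeR adjusted p = 0.758; DESeq2 adjusted p = 0.284), and with each library left out it ran from -0.58 to -0.40. Set against its partner, the ratio of STIP1 to HSP90AB1 in FPKM was 0.0837, 0.0860, 0.115, 0.0970 and 0.0789 in IL-15 tumours 1 to 5, against 0.110, 0.135, 0.119, 0.0991 and 0.124 in control tumours 1 to 5, and these ratios overlapped.

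ST13, the HSP70-interacting protein HIP, followed STIP1 in order of p among the 10 co-chaperones (ENSG00000100380, chromosome 22, 40824535 to 40857022 on hg38). It was at 325, 391, 385, 310.5 and 315 CPM in IL-15 tumours 1 to 5, against 272, 294, 289, 374 and 299.7 CPM in control tumours 1 to 5. IL-15 tumours lay above control tumours except for control tumour 4, which stood at the height of IL-15 tumours 2 and 3 (log2 fold change 0.18 ± 0.13, edgeR adjusted p = 0.826). The remaining 8 had log2 fold changes from -0.27 to 0.13, and the levels of all 8 overlapped between the groups. PTGES3, the p23 protein that stabilises the closed HSP90 dimer, was the most abundant of them per length at a mean of 123 FPKM over the 10 tumours. CDC37, the adaptor for kinase clients, followed ST13 (71.3 FPKM) at 66.2 FPKM and had a log2 fold change of -0.12 ± 0.15. FKBP4, an immunophilin of steroid receptor complexes including that of the androgen receptor, measured 265 ± 62.5 CPM in IL-15 tumours and 295 ± 30.3 CPM in control tumours (SD, n = 5 each; log2 fold change -0.15 ± 0.17). IL-15 tumour 3 alone, at 163 CPM, lay outside the control range of FKBP4, below it.

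AHSA1, which speeds the ATPase of HSP90, had a log2 fold change of 0.13 ± 0.14, and SUGT1, an adaptor for immune receptors and kinetochores, of 0.10 ± 0.17. CHORDC1, a zinc-binding HSP90 partner, had -0.094 ± 0.17, and STUB1, the ubiquitin ligase CHIP that sends chaperone clients to the proteasome, -0.27 ± 0.21. CACYBP, a bridge to ubiquitin ligases, had -0.075 ± 0.15, which turned to 0.0031 when scaled by library totals alone. PTGES3 stood at 0.0044, close to 0, and took the other sign under several settings.

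HSP70 proteins are the hub of the system. Of 6 tested members 2 lay above 0 and 4 below (median log2 fold change -0.22). HSPA8, the constitutive HSC70, was the most abundant of them per gene length at 210.3 ± 33.0 FPKM in IL-15 tumours and 269 ± 57.6 FPKM in control tumours (ENSG00000109971, chromosome 11, 123057489 to 123063230 on hg38). It measured 1243, 1259, 852, 1093 and 1191 CPM in IL-15 tumours 1 to 5, against 1051, 1785, 1627, 1433 and 1231 CPM in control tumours 1 to 5. Control tumours 2, 3 and 4 lay above all IL-15 tumours and control tumours 1 and 5 among them (log2 fold change -0.34 ± 0.17, edgeR adjusted p = 0.774). These are the same 3 control tumours that stood highest for HSPB8 and BAG3, an observation made after the values were seen.

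HSPA4L, an HSP110-type protein that releases nucleotide from HSP70, was scarce but variable (ENSG00000164070, chromosome 4, 127781821 to 127840733 on hg38). Its level was 3.43, 9.81, 5.91, 10.8 and 8.65 CPM in IL-15 tumours 1 to 5, against 12.4, 40.7, 28.9, 8.99 and 10.4 CPM in control tumours 1 to 5. Control tumours 2 and 3 stood far above the rest, while control tumour 4 lay within the IL-15 range and control tumour 5 just under its top. The log2 fold change was -1.39 ± 0.46 (edgeR adjusted p = 0.758), and without control tumour 2 it was -0.97, still with an unadjusted p under 0.05. With each library left out in turn, the edgeR adjusted p of HSPA4L ran from 0.424 to 0.999. Of its relatives, HSPA4 had a log2 fold change of -0.11 ± 0.13 and HSPH1, the inducible HSP105, 0.16 ± 0.22, both with overlapping levels.

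The stress-inducible HSP70 genes HSPA1A and HSPA1B lie side by side on chromosome 6 (31815464 to 31817946 and 31827735 to 31830255) and encode nearly the same protein, so reads may be split between them and single values are uncertain. HSPA1B measured 57.5, 65.8, 70.8, 69.2 and 83.7 CPM in IL-15 tumours 1 to 5, against 33.3, 49.99, 65.2, 125 and 50.8 CPM in control tumours 1 to 5. HSPA1A measured 11.3, 4.19, 6.34, 9.86 and 15.98 CPM in IL-15 tumours 1 to 5, against 3.13, 14.6, 17.3, 30.2 and 12.5 CPM in control tumours 1 to 5. Control tumour 4 was highest and control tumour 1 lowest for each, so the control range enclosed the IL-15 range. The log2 fold changes were 0.096 ± 0.29 for HSPA1B and -0.71 ± 0.50 for HSPA1A (edgeR adjusted p = 0.962 and 0.818). Summed to a single gene, the pair had a log2 fold change of -0.028. Without control tumour 4, HSPA1B alone gave 0.48 (unadjusted p under 0.05, edgeR adjusted p = 0.504, in a range over all alternatives of 0.504 to 0.999) and HSPA1A -0.32. That is 1 end of the range. With each library left out in turn, HSPA1B ran from -0.072 to 0.48 and HSPA1A from -0.98 to -0.32. In those fits 616 to 1575 genes had an unadjusted p under 0.05.

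HSPA8 exceeded HSPA1B per length in every tumour, with an FPKM ratio of 11.2, 9.95, 6.25, 8.21 and 7.40 in IL-15 tumours 1 to 5, against 16.4, 18.6, 12.96, 5.95 and 12.6 in control tumours 1 to 5. Control tumour 4, with the lowest of these ratios, was the exception among control tumours, the others lying above all IL-15 tumours. HSPA2, known for its role in sperm development, had 7 counts over the IL-15 and 13 over the control libraries and was not tested. HSPA6, an HSP70 gene that is nearly silent without stress in human cells, is outside the set and measured 5.29 ± 2.62 CPM in IL-15 tumours and 3.12 ± 1.62 CPM in control tumours (SD, n = 5 each; log2 fold change 0.75 ± 0.42, edgeR adjusted p = 0.776).

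HSP40 proteins deliver clients to HSP70 and trigger its ATPase. Among 5 members, 4 had log2 fold changes above 0 (median 0.084). DNAJA4 had the largest of them (ENSG00000140403, chromosome 15, 78264086 to 78282196 on hg38). It measured 2.13, 1.17, 1.43, 2.64 and 1.17 CPM in IL-15 tumours 1 to 5, against 1.28, 0.845, 0.614, 1.04 and 0.428 CPM in control tumours 1 to 5. IL-15 tumours lay above control tumours apart from control tumour 1, which exceeded IL-15 tumours 2 and 5 (log2 fold change 1.00 ± 0.37, edgeR adjusted p = 0.758). Its counts were 31, 22, 23, 37 and 16 in IL-15 and 20, 12, 9, 18 and 6 in control libraries, close to the depth limit. It also overlaps WDR61 on the other strand, which had 7451 counts over the 10 libraries. No source used here says whether counting used strand, so reads of the pair cannot be told apart.

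DNAJB4 was at 9.82, 11.2, 17.2, 8.43 and 8.29 CPM in IL-15 tumours 1 to 5, against 8.74, 9.22, 11.6, 10.6 and 8.13 CPM in control tumours 1 to 5, with IL-15 tumour 3 on its own at the top (log2 fold change 0.19 ± 0.23, edgeR adjusted p = 0.895; ENSG00000162616, chromosome 1, 77979175 to 78017964 on hg38). Without that tumour it stood at -0.022. DNAJB1, the main stress-inducible HSP40, averaged 121 ± 7.63 CPM in IL-15 tumours and 114 ± 34.4 CPM in control tumours (SD, n = 5 each), a tight group beside a wide one whose ends were control tumours 1 and 4. DNAJA1, the abundant cytosolic form, and DNAJC7, which links HSP70 and HSP90, had log2 fold changes of 0.073 ± 0.14 and -0.099 ± 0.12.

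**Figure D3:**
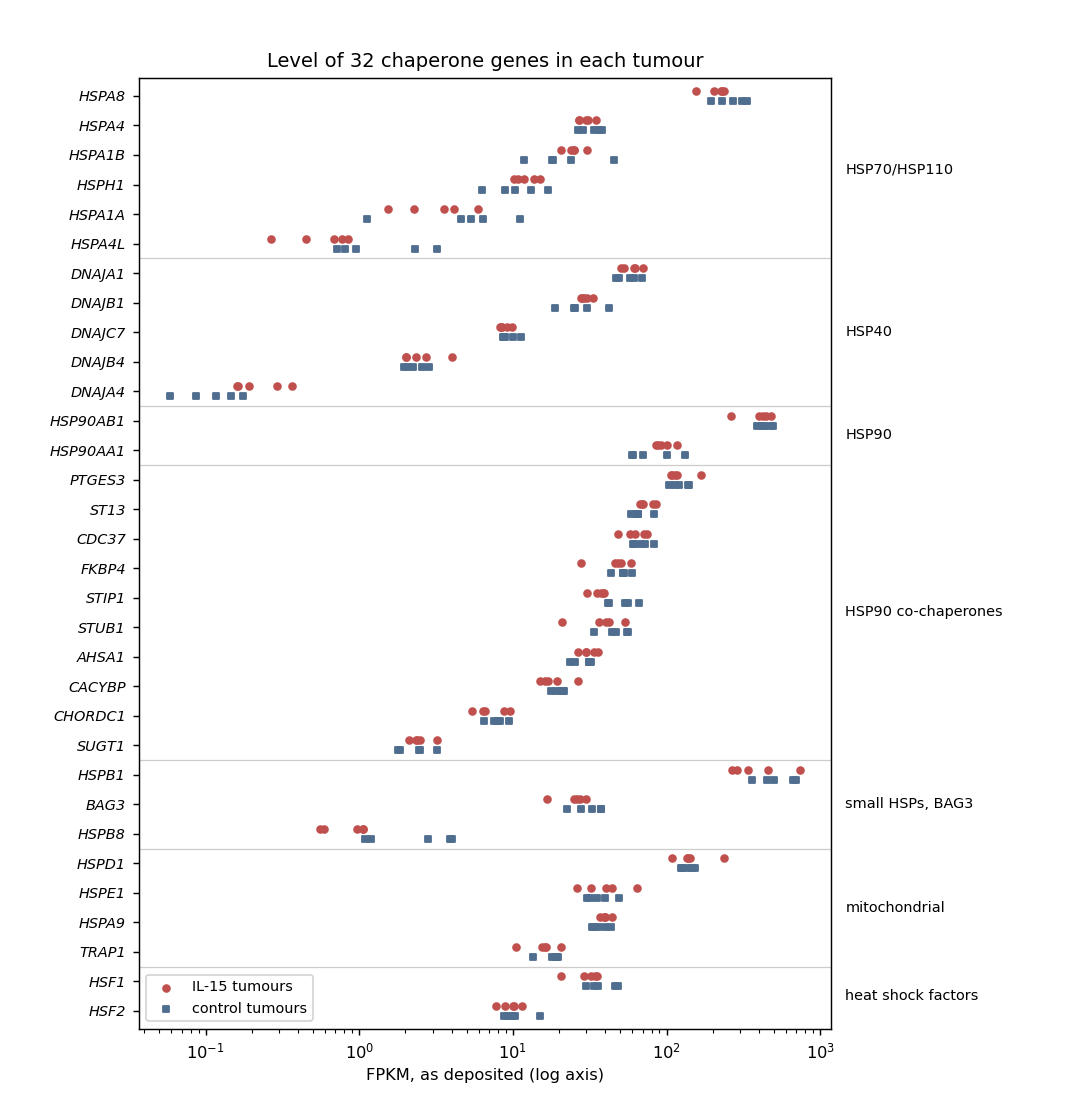
FPKM as deposited (x axis, log scale) of 32 tested members by role (y axis), with 5 IL-15 tumours as circles and 5 control tumours as squares. Levels span from DNAJA4, at a mean of 0.175 FPKM over 10 tumours, to HSPB1, at 476 FPKM, and in most rows circles and squares overlap.

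Mitochondrial chaperones fold proteins after import. HSPD1 and HSPE1 form the chaperonin barrel and its lid, HSPA9 is the HSP70 of the matrix that pulls precursors in, and TRAP1 is its HSP90. Of these 4 genes 3 lay above 0 (median log2 fold change 0.15). HSPA9 measured 361, 359.8, 373, 336 and 396 CPM in IL-15 tumours 1 to 5, against 299, 304, 354, 388 and 324 CPM in control tumours 1 to 5 (ENSG00000113013, chromosome 5, 138553756 to 138575724 on hg38). It was the steadiest member, with 1.32-fold between the highest and the lowest of the 10 tumours (log2 fold change 0.13 ± 0.12, edgeR adjusted p = 0.854). TRAP1 was at 89.6, 94.7, 62.0, 93.3 and 118 CPM in IL-15 tumours 1 to 5, against 78.9, 103, 108, 112 and 109.8 CPM in control tumours 1 to 5 (ENSG00000126602, chromosome 16, 3651639 to 3717597 on hg38). IL-15 tumour 3 was lowest and IL-15 tumour 5 highest of all, so the IL-15 range enclosed the control range (log2 fold change -0.16 ± 0.16, edgeR adjusted p = 0.872).

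HSPD1 and HSPE1 are neighbours on chromosome 2 that are read in opposite directions, and their annotated spans overlap. HSPD1 measured 671, 1097, 523, 653 and 626 CPM in IL-15 tumours 1 to 5, against 586, 679, 577, 623 and 724 CPM in control tumours 1 to 5. HSPE1 measured 96.6, 139, 72.1, 88.4 and 56.5 CPM in IL-15 tumours 1 to 5, against 77.8, 85.6, 64.9, 68.5 and 107 CPM in control tumours 1 to 5. IL-15 tumour 2 was the highest for both, and without it the log2 fold changes of 0.16 and 0.17 became -0.034 and -0.031. The FPKM ratio of HSPD1 to HSPE1 was 3.23 to 5.15 in IL-15 tumours and 3.16 to 4.24 in control tumours.

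Transcription factors of the heat shock response had lower means in IL-15 tumours, with overlapping levels. HSF1, the main activator (ENSG00000185122, chromosome 8), measured 189, 170.5, 123, 200.0 and 203 CPM in IL-15 tumours 1 to 5, against 198, 283, 206, 172 and 272 CPM in control tumours 1 to 5. IL-15 tumour 3 was the lowest and control tumours 2 and 5 the highest, with the rest mixed (log2 fold change -0.35 ± 0.18, edgeR adjusted p = 0.773). HSF2, a partner with roles in development, measured 26.8, 29.7, 34.9, 23.2 and 30.1 CPM in IL-15 tumours 1 to 5, against 30.9, 44.5, 28.8, 25.6 and 27.9 CPM in control tumours 1 to 5 (ENSG00000025156, chromosome 6, 122399546 to 122433119 on hg38). Control tumour 2 stood alone above the rest (log2 fold change -0.12 ± 0.17, edgeR adjusted p = 0.911), and without it the value was 0.030. These are transcript levels, and HSF1 is known to be switched on by changes to the protein.

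SERPINH1, known as HSP47, folds collagen in the endoplasmic reticulum (ENSG00000149257, chromosome 11, 75562056 to 75572783 on hg38). It had 1, 0, 3, 8 and 1 counts in IL-15 tumours 1 to 5, against 2, 1, 0, 0 and 0 in control tumours 1 to 5, so most libraries were at or under the floor of 3 counts and no fold is given. Its annotated pseudogene had 40 counts over the 10 libraries, more than the 16 of the gene. Collagen-modifying enzymes had counts among the same human genes, with P4HA1 at 148 ± 30.5 CPM in IL-15 tumours and 107 ± 37.0 CPM in control tumours and P4HA2 at 18.8 ± 7.09 CPM in IL-15 tumours and 12.4 ± 2.34 CPM in control tumours (SD, n = 5 each).

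Single tumours were highest or lowest for several members at once. Over the 32 tested members, the highest of the 10 tumours exceeded the lowest by 1.32-fold to 11.9-fold, with a median of 2.10-fold, and 18 members spanned over 2-fold. Control tumour 2 was the highest for 10 members: HSP90AA1, HSP90AB1, STIP1, FKBP4, BAG3, HSPA4, HSPA4L, HSPA8, HSF1 and HSF2. IL-15 tumour 2 was the highest for 6: HSPD1, HSPE1, PTGES3, ST13, CACYBP and SUGT1. Control tumour 4 was the highest for 4, HSPA1A, HSPA1B, DNAJB1 and HSPH1. At the other end, IL-15 tumour 3 was the lowest for 12 members and control tumour 1 for 8. How often these tumours were highest or lowest over all genes was not counted. With TMM factors, low values in IL-15 tumour 3 were not particular to the set. On that scale it also had the lowest summed CPM of the 10 tumours for other cytosolic chaperones (1559 CPM) and for TRiC with prefoldin (2087 CPM). The same held for other mitochondrial chaperones and proteases (1090 CPM) and for chaperones of the endoplasmic reticulum (3569 CPM). IL-15 tumour 3 had the largest TMM factor of the 10 tumours, which lowers all its scaled CPM. The 12 members lowest in it were counted on the same scale. Whether these sums were also lowest in IL-15 tumour 3 on library totals was not tested. As a share of all counts, mitochondrially encoded transcripts had 5.84 to 7.95% in IL-15 tumours and 5.89 to 7.76% in control tumours. Their part in these differences was not tested.

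**Figure D4:**
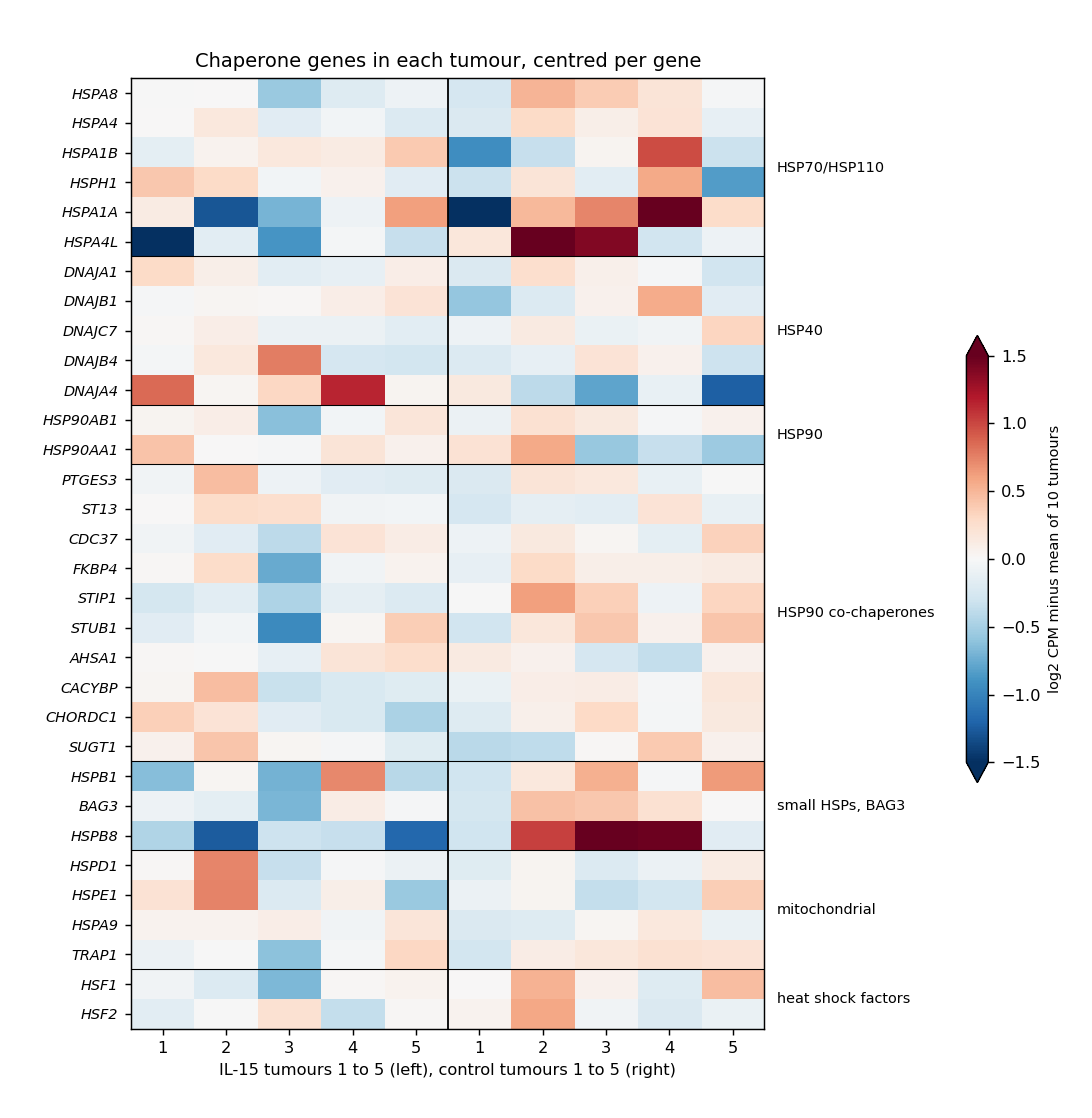
Log2 CPM (pseudocount 0.1 CPM) of 32 chaperone genes minus the mean of each over 10 tumours (colour, ends at 1.5 on either side), with IL-15 tumours 1 to 5 left of control tumours 1 to 5 and genes grouped by role. IL-15 tumour 3 and control tumour 1 are mostly blue, lowest for 12 and 8 members, and control tumour 2 is mostly red, highest for 10.

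Other chaperone and stress genes gave the setting. Among cytosolic chaperones outside the set, 10 of 26 tested rows lay above 0 and 16 below (median log2 fold change -0.014). Of these rows 0 passed edgeR's adjusted threshold (0.0% of all tested genes). At an unadjusted edgeR p under 0.05 stood 1 row, where 6.46% of all tested genes did. This row was BAG5, which helps HSP70 exchange nucleotide. It measured 65.1, 77.0, 107, 82.6 and 76.6 CPM in IL-15 tumours 1 to 5, against 64.6, 52.7, 64.6, 61.0 and 52.0 CPM in control tumours 1 to 5, every IL-15 tumour above every control tumour, as for 0.355% of all genes (log2 fold change 0.47 ± 0.15, edgeR adjusted p = 0.758).

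The cytosolic chaperonin TRiC with prefoldin, which fold actin and tubulin, had 11 of 14 members below 0 (median -0.021). Of these the prefoldin subunit PFDN4 had the smallest p, at 17.3 ± 3.95 CPM in IL-15 tumours and 23.9 ± 5.46 CPM in control tumours (log2 fold change -0.47 ± 0.20, edgeR adjusted p = 0.758), followed by PFDN2 at -0.20. Other mitochondrial chaperones and proteases had 8 of 12 below 0 (median -0.048), led by the disaggregase CLPB at 39.4 ± 7.59 CPM in IL-15 tumours and 55.4 ± 14.9 CPM in control tumours (log2 fold change -0.49 ± 0.19, edgeR adjusted p = 0.758) and the protease subunit CLPP at -0.25. 

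Chaperones of the endoplasmic reticulum had 10 of 15 members below 0 (median -0.070). The HSP90 of that compartment, HSP90B1, averaged 684 ± 172 CPM in IL-15 tumours and 547 ± 94.9 CPM in control tumours (log2 fold change 0.32 ± 0.19, edgeR adjusted p = 0.777), and MANF stood at -0.33. A mixed list of further stress genes, not all driven by HSF1, had 9 of 12 below 0 (median -0.063), with MRPL18 at -0.16 and the autophagy receptor SQSTM1 at -0.27. Collagens and their modifying enzymes had 5 of 8 above 0 and 3 below (median 0.23), with P4HA2 at 0.61 and P4HA1 at 0.46. The largest difference of that list was on the lower side, COL5A1 at -2.91. It rested on control tumour 2 at 95.3 CPM, the next highest being control tumour 1 at 7.14 CPM. In none of these lists did a member pass edgeR's adjusted threshold.

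Of the 34 members, 23 overlap another annotated gene and 12 a protein-coding gene on the other strand. Pseudogenes named by the member's symbol followed by P, with or without a number, were found for 15 members. Those with names of another form, as for HSP90 genes, were not counted. Counts of the pseudogenes found exceeded 2% of the member's own for SUGT1 (9.39%) and SERPINH1.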

How the data were processed

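Tumour RNA was extracted with TRizol and read on Illumina instruments, per the labels' protocols. Build hg38 and the tools HISAT2 2.0.5, fastp, GATK 4.1.1.0, DESeq2 1.20.0 and featureCounts 1.5.0-p3 are listed in the submitters' processing notes, without roles. Not given in the sources used here are strandedness, annotation release and treatment of reads from the host. Raw read counts per human gene, whole numbers, stand in the deposited table, although the labels give the organism as mouse. The authors' deposited FPKM values were used for levels between genes and as an alternative. A deposited table of group means was not used. No human sequences were at hand, so none are shown.

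Counts were kept with filterByExpr (minimum count 10; 16913 genes), given TMM factors and put through the edgeR 4.0.16 quasi-likelihood test (R 4.3.3) with Benjamini-Hochberg adjustment over all genes at 0.05. The standard error is the fold change divided by the root of F. Alternatives used DESeq2 1.42.0, limma 3.58.1, other scalings and filters, a replicate block and libraries left out. All 45 pairs of libraries differed beyond sampling noise (chi-square divided by its degrees of freedom, 20.6 to 92.5). On counts simulated for this comparison (16592 genes tested), edgeR recovered 57.6% of 2-fold and 93.8% of 4-fold changes with 6 false calls. Those counts were drawn independently per gene from the fitted dispersions, with 99 genes changed 2-fold and 97 changed 4-fold. The rates check the code and are no measure of power in the tumours.

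The members and lists were chosen with earlier results of these data known. Every library's value is given for the 2 members with the smallest p of each role, all members of roles of up to 3, members whose groups do not overlap and the 3 with the highest mean FPKM. Values of HSPA1A, HSPA1B, HSPD1 and HSPE1 and the grouping by highest tumour were added after the values were seen. Of each other list up to 2 genes with the smallest p are named, and COL5A1 was added after the values were seen. HSPA14 has 2 rows in the table.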

Additional observations from a re-analysis of the deposited data

Results flagged for a closer look

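In 5 of 64 sets of 5 tumours, a single tumour stood farther from the nearest other than 0.71 of the range of its group, where chance gives about 1 in 20. PTGES3 measured 625 CPM in IL-15 tumour 2, against 439.6 CPM in the next highest IL-15 tumour. HSPD1 measured 1097 CPM in the same tumour, with the next at 671 CPM. ST13 was high in control tumour 4 at 374 CPM (next 299.7 CPM). HSF2 was high in control tumour 2 at 44.5 CPM (next 30.9 CPM). TRAP1 was low in control tumour 1 at 78.9 CPM, the next lowest control tumour being at 103 CPM.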

How the results depend on the processing

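Under the 11 alternatives that kept all libraries, the median over the tested members stayed below 0, from -0.12 to -0.009, the value nearest 0 being with library totals only, where the median of all genes moved to 0.077. DESeq2 called 15 genes over all, 1 of them a member (HSPB8, adjusted p = 0.0485, log2 fold change -1.61), with 1683 genes at an unadjusted p under 0.05. Without a low-count filter edgeR called 1 gene, no member, and 2756 had an unadjusted p under 0.05, against 1092 in the reported fit. The adjusted p of HSPB8 was 0.0661 there and ran from 0.0485 to 0.999 over all alternatives. With each library left out in turn, edgeR called 0 genes and 0 members, 616 to 1575 genes had an unadjusted p under 0.05, 4 to 7 members did so (the most without control tumour 1, when HSPA8, BAG3 and HSPA1A joined), 17 to 21 members lay below 0, and the median ran from -0.13 to -0.017, nearest 0 without IL-15 tumour 3.

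On library totals 1 member (STIP1) had groups without overlap, against 2 with TMM factors, an alternative chosen after seeing the data. Of 32 tested members, 23 kept their direction under every alternative and 9 turned, and the cause was not tested. CACYBP was 0.0031 with library totals only. PTGES3 was -0.0015 with DESeq2, -0.010 with limma voom, -0.024 and -0.024 on FPKM with pseudocounts of 0.1 and 1, and -0.0084 with the replicate block. HSPA1B, summed with HSPA1A, was -0.028. Over the libraries left out, PTGES3 ran from -0.12 to 0.050, HSPD1 ran from -0.034 to 0.26, HSPE1 ran from -0.031 to 0.29, DNAJB4 ran from -0.022 to 0.27, HSP90AB1 ran from -0.18 to 0.011, CACYBP ran from -0.22 to 0.0012, DNAJB1 ran from -0.029 to 0.27, HSPA1B ran from -0.072 to 0.48 and HSF2 ran from -0.19 to 0.030.

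The labels give no pairing, and the replicate numbers gave no clear sign of it. Deviations of same-numbered libraries correlated from -0.22 to 0.26, and 1 of 5 IL-15 and 1 of 5 control libraries correlated best with its own number. With only 5 pairs this cannot exclude a pairing. With the number as a replicate block 0 genes were called, 1035 had an unadjusted p under 0.05, the members' median was -0.10 with 19 below 0, and no call changed. Depth limits DNAJA4, HSPA2 and SERPINH1 most.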
